A study of Camellia sinensis with 12 samples.

Results

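The subject is a set of 99 annotated tea genes whose leaf RNA was high in the genotypes Kucha-11 (K11) and Qingxin 1 (QX1) and low in Kucha-6 (K6) and Yinghong 9 (YH9). They were chosen among the 33932 annotated genes, those with a TEA identifier. For each genotype the mean of log2(FPKM + 1) was taken over its 3 libraries, FPKM being a fragment count per gene, corrected for gene length and for library size. A gene was kept where the lower of the K11 and QX1 means exceeded the higher of the K6 and YH9 means by at least 1, a difference termed the margin here, and where all 6 K11 and QX1 libraries lay above all 6 K6 and YH9 libraries. The kept genes were 0.292% of the annotated genes. The levels of the pairs and the margin are therefore a description of what was chosen and carry no test.

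The series holds 12 leaf libraries, 3 each from K11 (a Kucha genotype), QX1 (a conventional variety), K6 (a Kucha genotype) and YH9 (a conventional variety). All plants grew in the same germplasm collection, and the labels give no treatment and no plant age. Whether replicate libraries stem from different plants is not said in the labels. The p-values hence rest on library-to-library spread, part or all of which may be technical. The genotypes were picked by the submitters for contrasting theacrine content.

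Theacrine is a purine alkaloid of the same family as caffeine, and Kucha is a bitter tea known for storing it in its leaves. Tea cultivars are usually propagated as clones from cuttings, so that the plants of a cultivar share their genome, and a gene can be transcribed strongly in one cultivar and weakly in another. Each Kucha genotype stands here beside a conventional one, so the chosen genes cut across the division into Kucha and conventional tea. The deposited tables give identifiers without gene names. A search of the 80110 RefSeq tea genes at hand matched 0 of the 42704 identifiers. No function is given for any gene, and the leaf label could not be checked against marker genes.

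The FPKM values summed to between 609588 and 653908 per library, and between 24728 and 26084 features reached 1 FPKM. Read counts are unknown, so the precision of single low values is unknown as well, and a value of 0 may stand for a failed estimate or a level below the 2 decimals. One library stood apart in single genes. K6 replicate 2 lay at or below 0.1 times the lower of the other K6 libraries, with those at 5 FPKM or more, in 36 annotated genes (0.277% of those that could be compared), against 0 to 5 genes in each of the other 11 libraries. Of the 29 genes of the set that could be compared, 2 (6.90%) behaved this way in K6 replicate 2, and 0 genes of the set did in any other library. A low K6 library lowers the K6 mean and so helps a gene into the set. The share in the set can therefore not be set against that of all annotated genes. The 2 genes are TEA026520.1 and TEA029054.1, described with their values further on.

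The 99 genes were mostly of low to middle abundance. Their median level was 11.8 FPKM in K11 and 8.41 FPKM in QX1, against 2.13 FPKM in K6 and 1.51 FPKM in YH9 (medians over genes of the genotype mean). By library, the median over the genes ran from 12.1 to 12.4 FPKM in K11 and from 7.73 to 9.08 FPKM in QX1, against 1.35 to 2.35 FPKM in K6 and 1.58 to 1.70 FPKM in YH9. The lowest of the K6 values belonged to replicate 2, at 1.35 FPKM, beside 2.35 and 2.26 FPKM in replicates 1 and 3. That library was the lowest of its genotype in 49 of the 99 genes, and in 33.7% of all features tested. The choice by low K6 means can itself raise this count, so nothing is read from it. The genes took 1.40% ± 0.06 of the summed FPKM in K11 and 1.09% ± 0.07 in QX1, against 0.435% ± 0.077 in K6 and 0.192% ± 0.001 in YH9 (mean ± SD, n = 3 libraries each). A large part of this came from the 2 most abundant genes, TEA009770.1 and TEA006434.1, whose genotype means summed to 5372 FPKM of 8806.3 in K11 and to 4439.9 of 7004.0 in QX1, against 1940.6 of 2741.1 in K6 and 577 of 1188.9 in YH9.

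**Figure D1:**
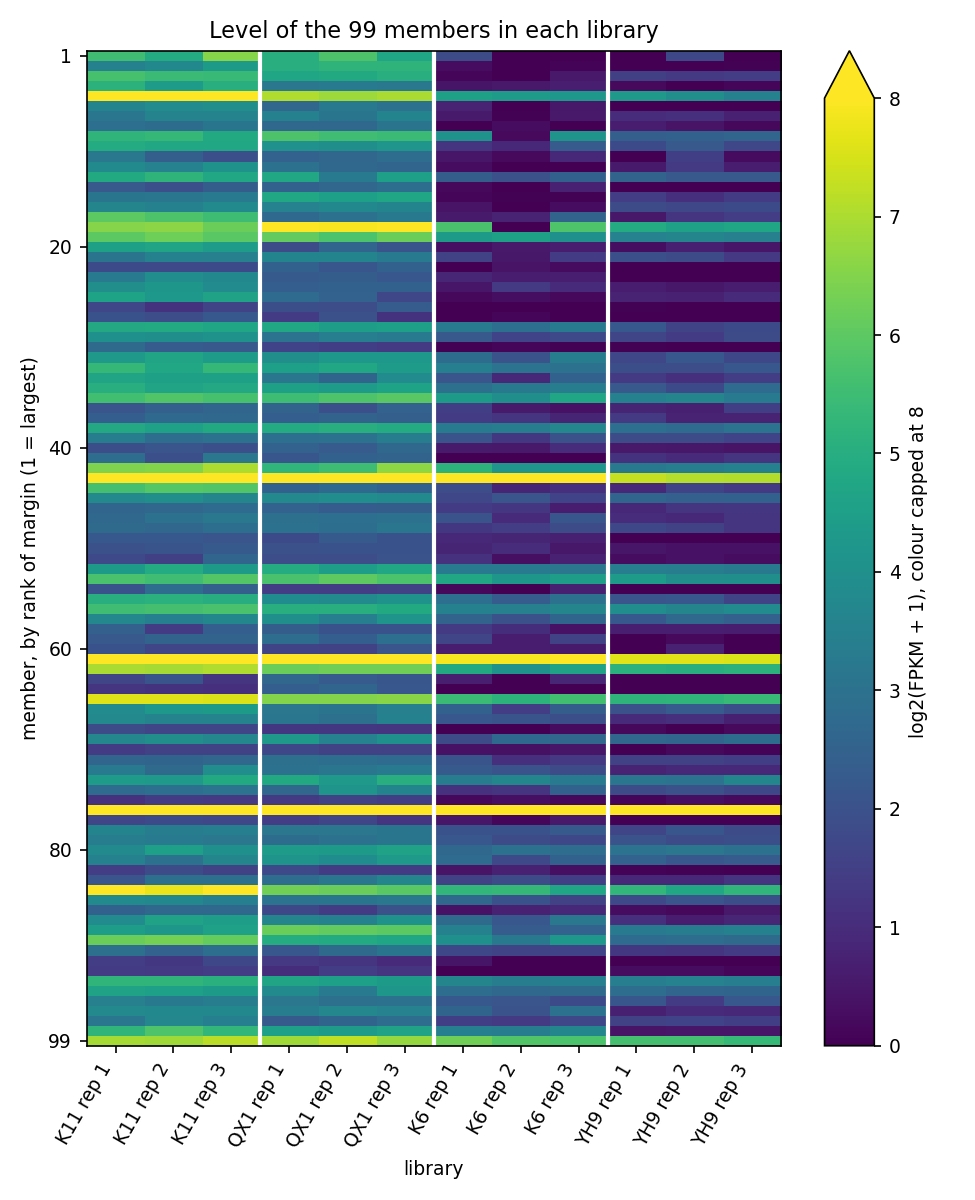
Colour gives log2(FPKM + 1) of each of the 99 genes (rows, by rank of the margin) in each of the 12 libraries (columns, 3 per genotype), with the colour scale ending at 8. The K11 and QX1 columns are the brighter ones, as the choice of genes required, except where the colour scale ends, as for TEA009770.1 (over 8 in all 12 libraries), and a few dark cells stand alone in K6 replicate 2, among them TEA026520.1 at 0 FPKM.

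The margin was small for most genes. Its median was 1.23 (quartiles 1.07 and 1.5), and it reached 2 in 10 genes and 3 in 3 genes. The set thus has no sharp edge. The 3 genes just inside had margins of 1.003 to 1.01, and the 3 just outside, with no overlap of libraries, had margins of 0.996 to 0.999. A further 6 genes had a margin of at least 1 but were left out because a K6 or YH9 library overlapped the K11 and QX1 libraries. With 1 library left out, the same rule kept between 83 and 115 genes, and 60 of the 99 were kept in all 12 such settings. The lowest count came without K6 replicate 2, when 20 of the 99 left the set and 4 other genes entered it. The 20 had a median margin of 1.05.

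TEA028234.1 had the largest margin, 4.57. It stood at 45.8, 29.0 and 92.4 FPKM in the K11 libraries and at 32.2, 53.0 and 25.6 FPKM in the QX1 libraries, against 2.59, 0 and 0 FPKM in the K6 libraries and 0, 2.33 and 0 FPKM in the YH9 libraries. K11 and QX1 overlapped each other, and the low pair was listed at 0 in 4 of its 6 libraries. Neither pair was called, with 0.49 ± 0.62 for K11 minus QX1 and 0.04 ± 0.62 for K6 minus YH9 (log2(FPKM + 1) difference ± SE; limma, adjusted p = 0.555 and 0.97). Only 2 of the 6 K6 and YH9 libraries reached 1 FPKM, so this gene entered the test through its K11 and QX1 levels. The test of K6 against YH9 could hardly show a difference here, and nothing is read from it.

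The next margins were those of TEA019819.1 at 3.75 and TEA020181.1 at 3.43, singled out after their values were seen as the other genes past a margin of 3. TEA019819.1 had 10.6, 12.3 and 19.3 FPKM in K11 and 31.5, 36.1 and 36.2 FPKM in QX1, against at most 0.21 FPKM in K6 and at most 0.03 FPKM in YH9. All QX1 libraries lay above all K11 libraries. TEA020181.1 had 49.6, 42.8 and 40.5 FPKM in K11 and 25.1, 27.8 and 32.3 FPKM in QX1, against 0.09, 0 and 0.47 FPKM in K6 and 1.86, 1.56 and 1.73 FPKM in YH9. Here K11 lay above QX1 and YH9 above K6, with no overlap in either pair.

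The levels in the low pair varied from gene to gene. In 4 genes no K6 or YH9 library exceeded 0.1 FPKM, in 53 genes both the K6 and the YH9 mean reached 1 FPKM, and 42 genes lay in between. The 4 near-off genes were TEA008417.1, TEA028450.1, TEA012281.1 and TEA029547.1, and they were weak in the high pair too, with means of 2.54 to 3.15 FPKM over the 6 K11 and QX1 libraries. TEA029547.1 was the only gene listed at 0 in all 6 K6 and YH9 libraries. It had 1.28, 1.24 and 1.10 FPKM in K11 and 4.27, 5.04 and 3.54 FPKM in QX1. A genotype with all 3 libraries at 0 was more often YH9, with 10 genes, than K6, with 4 genes, a difference that was not tested. Over all features, the number listed at 0 per library was lower in YH9 (7691, 9061 and 8989) than in K6 (9778, 10923 and 10241). The share of all features at 0 in all 3 libraries of a genotype was not counted. The 53 graded genes had a median of 24.3 FPKM over K11 and QX1, and the 42 in between had 5.04 FPKM.

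**Figure D2:**
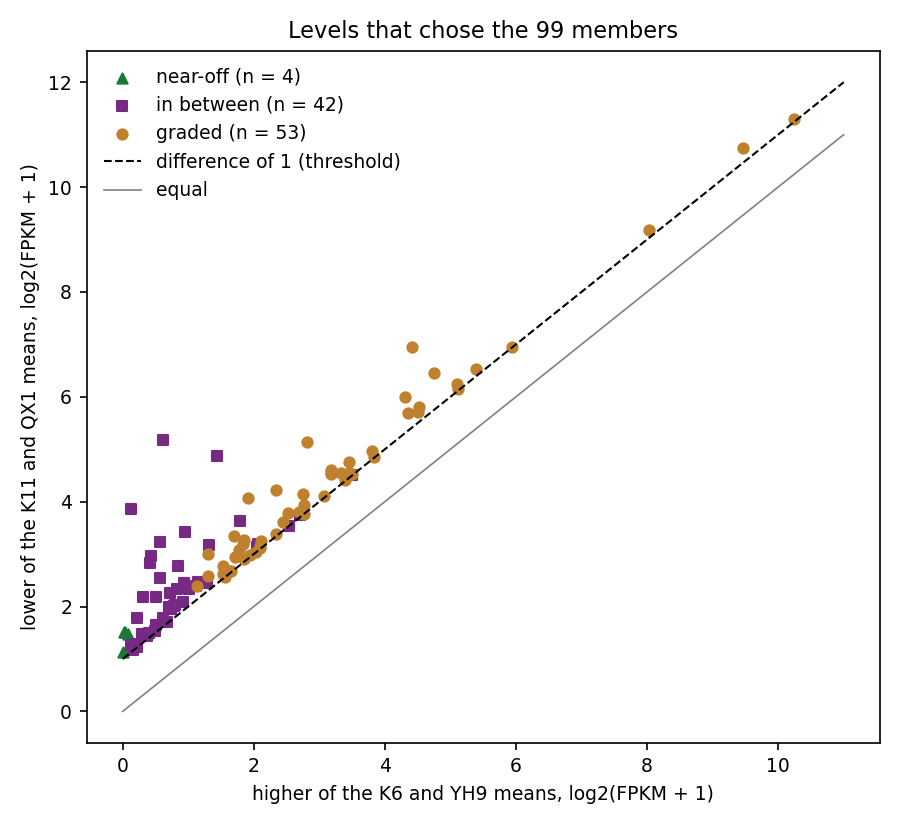
Each point is one of the 99 genes, with the higher of its K6 and YH9 means on the x axis and the lower of its K11 and QX1 means on the y axis, both as log2(FPKM + 1). Most points hug the dashed line of the threshold. The 3 with a margin of at least 3 lie at low K6 and YH9 levels, and the 3 most abundant genes at the upper right sit close to the line.

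All 99 genes passed the filter of the test, at least 1 FPKM in at least 3 libraries. In 62 of them at least 3 of the K6 and YH9 libraries reached 1 FPKM as well. The other 37 passed only with the K11 and QX1 libraries, and in 25 of these no K6 or YH9 library reached 1 FPKM, which leaves little room for a difference between K6 and YH9.

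The first comparison that the choice of genes left free was that inside the high pair, K11 against QX1. The K11 mean was above the QX1 mean in 65 genes and below it in 34. The 65 are 65.7% of the genes, against 56.3% of all features tested and 56.9% of annotated ones, shares that were not recounted after rescaling. The test called 18 genes (18.2%), where 19.2% of the 29364 features tested and 15.9% of the 22782 annotated ones were called, so the share lay near the background. That background includes features that passed the filter through K6 and YH9 libraries, and a share held to the K11 and QX1 libraries was not counted. A call means a limma adjusted p below 0.05 over all features tested and a log2 difference of at least 1. Of the 18, 14 rose in K11 (14.1% of the genes, against 10.6% of all features and 8.64% of annotated genes) and 4 fell (4.04%, against 8.62% and 7.25%). The median difference was 0.21 over the 99 genes and 0.08 over all features tested. The median over the 99 genes was 0.12 after quantile normalization and 0.10 after scaling by a trimmed mean of M-values. Then 13 and 12 genes were called higher and 4 called lower in both, and the share of all features called after rescaling was not counted. In 60 genes K11 and QX1 differed by less than 1.5-fold on the log2(FPKM + 1) scale, which is a size and not a test of likeness. The share of all features within that size was not counted, so nothing is read from the 60.

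TEA021329.1 had the largest rise in K11. It stood at 49.3, 59 and 55.3 FPKM in K11 and 4.65, 5.61 and 4.65 FPKM in QX1, against 2.71, 0.77 and 1.14 FPKM in K6 and 0.88, 2.09 and 1.56 FPKM in YH9. The K11 libraries stood far above all others, and QX1 lay nearer to the low pair than to K11. K11 exceeded QX1 by 3.22 ± 0.24 (SE; limma, adjusted p = 2.02e-07), while K6 and YH9 overlapped and differed by -0.03 ± 0.24 (limma, adjusted p = 0.938).

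TEA022240.1 came next, with 62.1, 53.3 and 44.8 FPKM in K11 and 5.68, 7.15 and 8.48 FPKM in QX1. In the low pair it had 0.49, 0.70 and 4.89 FPKM in K6 and 0.44, 1.28 and 1.72 FPKM in YH9, which overlapped. The difference of K11 minus QX1 was 2.75 ± 0.42 (SE; limma, adjusted p = 0.000154).

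The 4 genes that fell in K11 were TEA013438.1, TEA031174.1, TEA019819.1 and TEA029547.1. TEA013438.1 had 20.7, 18.0 and 22.8 FPKM in K11 and 71.9, 66.4 and 62.9 FPKM in QX1, against 10.3, 4.03 and 4.68 FPKM in K6 and 8.92, 9.34 and 10.4 FPKM in YH9. Its K11 libraries lay between QX1 and the low pair, and K11 minus QX1 was -1.67 ± 0.23 (SE; limma, adjusted p = 4.86e-05). TEA019819.1 and TEA029547.1, whose libraries are given above, differed by -1.28 ± 0.19 and -1.25 ± 0.14 (SE; limma, adjusted p = 7.75e-05 and 8.71e-06). TEA031174.1 is described with the low pair.

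The comparison inside the low pair, K6 against YH9, gave a count of the same order. The K6 mean was above the YH9 mean in 65 genes (65.7%, against 39.5% of all features tested and 39.8% of annotated ones). These shares are from values before rescaling, where the median difference over all features was -0.15. They were not recounted after rescaling or among genes that reached the filter in the K6 and YH9 libraries. Nothing is therefore read from the contrast. The test called 16 genes (16.2%), where 21.9% of all features tested and 18.8% of the annotated ones were called. Among the 62 genes that reached the filter in the K6 and YH9 libraries themselves, 14 (22.6%) were called, against 23.2% of all features and 19.6% of annotated genes held to the same filter, so the lower share over the 99 is no result about them. With a pseudocount of 0.1 the count was 34 of the 99, and 29.3% of all features were then called. Of the 16, 12 rose in K6 (12.1% of the genes, against 8.52% of all features and 7.55% of annotated genes) and 4 fell (4.04%, against 13.4% and 11.2%). The median difference was 0.17 over the 99 genes, where it was -0.15 over all features tested. After quantile normalization or scaling by a trimmed mean of M-values the median over all features was within 0.02 of 0. That over the 99 genes was 0.30 and 0.27, with 15 genes called higher and 4 lower in both. The share of all features called after rescaling was not counted, so nothing is read from these counts. The spread of K6 libraries in these genes was wide, with a median SD of 0.257 on the log2 scale over the 99 genes and 0.166 over all features, while YH9 had 0.120 and 0.144. The choice by low K6 means favours genes with a stray low K6 library, so this spread may come in part from the choice. Without K6 replicate 2 the test called 21 genes, 17 higher and 4 lower in K6, and the share of all features then called was not counted.

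TEA027031.1 rose most in K6. It had 36.6, 54.6 and 37.9 FPKM in K11 and 22, 19.8 and 23.3 FPKM in QX1, against 9.95, 9.35 and 11.6 FPKM in K6 and 0.35, 0.40 and 0.41 FPKM in YH9. Each genotype kept to its own range with no overlap, in the order K11, QX1, K6, YH9. K6 exceeded YH9 by 3.02 ± 0.14 (SE; limma, adjusted p = 2.48e-09). K11 exceeded QX1 by 0.94 ± 0.14, just under the size asked for (limma, adjusted p = 0.00012), and passed it at 1.04 without K11 replicate 1 and at 1.01 without K11 replicate 3. Its margin of 1.007 was the second smallest in the set.

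TEA006434.1, the second most abundant gene, showed the same order at far higher levels. It stood at 2817, 3089 and 2613 FPKM in K11 and 1740, 1277 and 2302 FPKM in QX1, against 719.5, 623 and 791 FPKM in K6 and 155, 138 and 134 FPKM in YH9. The genotypes did not overlap. K6 exceeded YH9 by 2.31 ± 0.17 (SE; limma, adjusted p = 1.3e-07), and K11 exceeded QX1 by 0.72 ± 0.17, below the size asked for (limma, adjusted p = 0.0033).

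TEA009770.1, the most abundant gene, was at the edge of the set. Its margin was 1.063 as deposited and 0.974 and 0.969 after quantile and trimmed mean scaling, so under both it would not have been chosen. It stood at 2644, 2735 and 2219 FPKM in K11 and 2534, 2828 and 2640.2 FPKM in QX1, against 1159, 973 and 1556 FPKM in K6 and 397, 483 and 426 FPKM in YH9. K11 and QX1 overlapped, while K6 lay between them and YH9. K6 exceeded YH9 by 1.47 ± 0.15 (SE; limma, adjusted p = 2.37e-06), and K11 minus QX1 was -0.08 ± 0.15 (limma, adjusted p = 0.692).

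The 4 genes that fell in K6 were TEA029070.1, TEA031174.1, TEA020181.1 and TEA024320.1. TEA029070.1 had 11.4, 10.5 and 13.1 FPKM in K11 and 10.6, 12.4 and 11.1 FPKM in QX1, against 0.33, 0 and 0.21 FPKM in K6 and 2.61, 2.29 and 2.51 FPKM in YH9. The high pair overlapped and the low pair did not. K6 minus YH9 was -1.56 ± 0.14 (SE; limma, adjusted p = 1.1e-06), and K11 minus QX1 was 0.03 ± 0.14 (limma, adjusted p = 0.893).

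TEA031174.1 fell in the Kucha genotype of both pairs. It had 7.55, 7.91 and 8.67 FPKM in K11 and 27.0, 22 and 25.9 FPKM in QX1, against 0.07, 0.04 and 0.04 FPKM in K6 and 1.76, 1.10 and 1.70 FPKM in YH9. No genotype overlapped another. The difference was -1.52 ± 0.14 for K11 minus QX1 and -1.25 ± 0.14 for K6 minus YH9 (SE; limma, adjusted p = 1.68e-06 and 8.01e-06).

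TEA020181.1, given above, also fell in K6, with a difference of K6 minus YH9 of -1.21 ± 0.15 (SE; limma, adjusted p = 1.89e-05). TEA024320.1 was listed at 0 in all K6 libraries and at 1.25, 0.98 and 1.28 FPKM in YH9, and its difference was -1.11 ± 0.25 (SE; limma, adjusted p = 0.00198). This gene entered the test only through its K11 and QX1 levels, and the YH9 values lie near the filter's 1 FPKM. In K11 it had 6.33, 2.91 and 7.95 FPKM and in QX1 3.45, 4.62 and 4.88 FPKM, which overlapped.

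**Figure D3:**
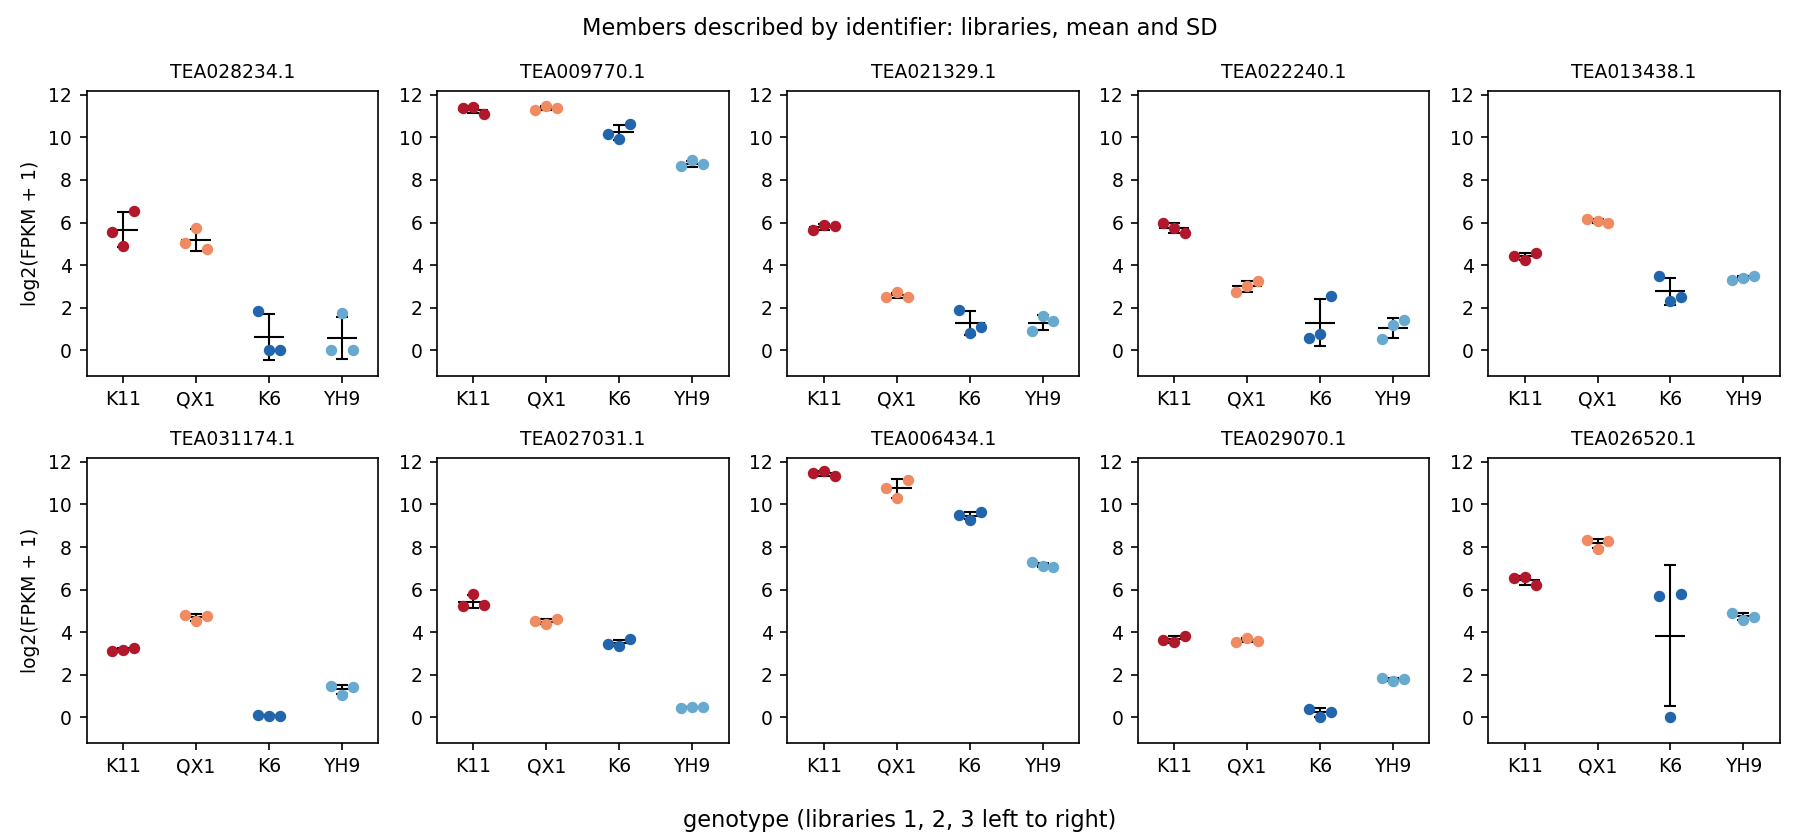
Each panel shows one gene, with a point per library, a dash at the genotype mean and bars of 1 SD (n = 3) on the log2(FPKM + 1) scale, the genotypes running from K11 and QX1 to K6 and YH9. K11 stands alone in TEA021329.1 and TEA022240.1, the levels step down from K11 to YH9 in TEA027031.1 and TEA006434.1, and the K6 libraries of TEA026520.1 split between 0 in replicate 2 and over 50 FPKM in the others.

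TEA026520.1 was singled out after its values were seen, because K6 replicate 2 decides how it is read. It stood at 92.2, 95.6 and 72.7 FPKM in K11 and 317, 242 and 308 FPKM in QX1, against 50.6, 0 and 54.6 FPKM in K6 and 29.3, 23.0 and 25.7 FPKM in YH9. K11 and QX1 did not overlap, yet K11 minus QX1, at -1.72 ± 1.24 (SE), was not called (limma, adjusted p = 0.283), because the fit shares one estimate of the spread over all 12 libraries. The same difference had an SE of 0.13 without K6 replicate 2 and of 0.14 in a fit of K11 and QX1 alone, and then passed (limma, adjusted p = 4.61e-07 and 2.29e-05). Without that library the margin of the gene was 0.70, so it left the set. TEA029054.1 had 36.4, 38.8 and 28.1 FPKM in K11 and 53.7, 45.5 and 42.4 FPKM in QX1, against 16.1, 0.14 and 16.6 FPKM in K6 and 4.33, 4.56 and 5.16 FPKM in YH9. Its margin was 2.33 with K6 replicate 2 and 1.02 without it.

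Of the 99 genes, 32 were called in at least one pair, 67 in neither and 2 in both (2.02%, against 6.98% of all features tested and 5.46% of annotated genes). With so few genes nothing is read from the count called in both. The 2 called in both went the same way in each: TEA031174.1 was lower in the Kucha genotype of each pair, and TEA013976.1 was higher. TEA013976.1 had 72.8, 79.3 and 67.5 FPKM in K11 and 30.2, 29.0 and 25.2 FPKM in QX1, against 15.1, 8.5 and 18.0 FPKM in K6 and 5.96, 6.33 and 5.84 FPKM in YH9, with no overlap of any genotypes. Its differences were 1.35 ± 0.19 and 1.02 ± 0.19 (SE; limma, adjusted p = 6.56e-05 and 0.000543). By their means, 45 genes were ordered K11, QX1, K6, YH9 from high to low, 20 were ordered K11, QX1, YH9, K6, another 20 QX1, K11, K6, YH9, and 13 QX1, K11, YH9, K6. In TEA029547.1 K6 and YH9 were tied at 0. These orders use means alone and include differences that did not pass the test.

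**Figure D4:**
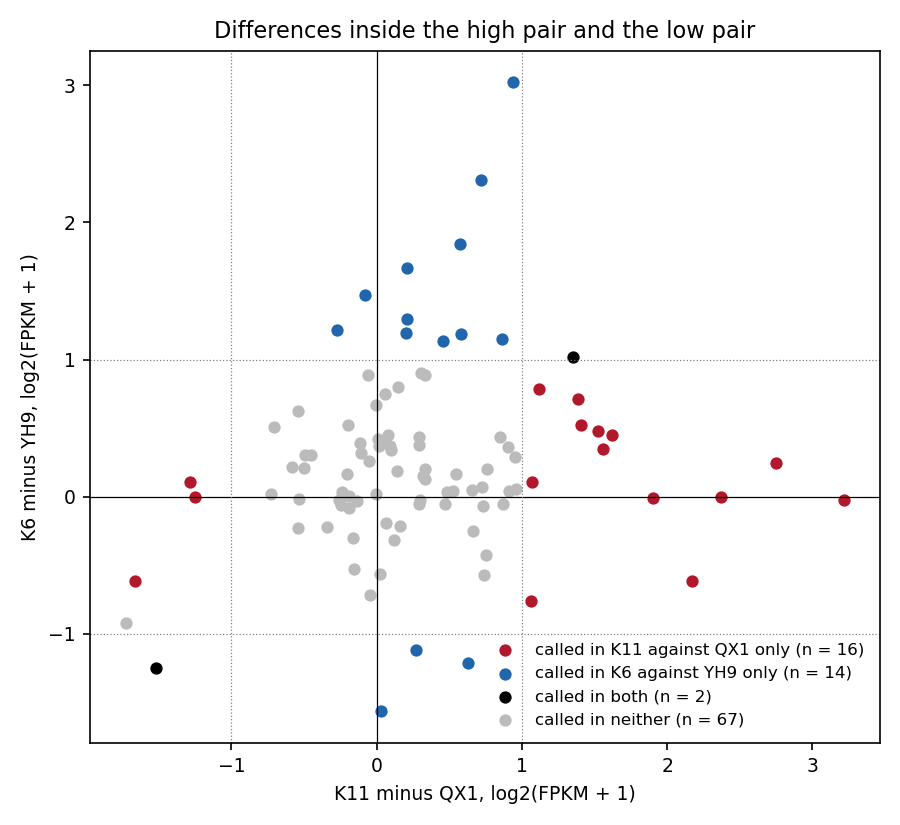
Each of the 99 genes is placed by its difference of K11 minus QX1 on the x axis and of K6 minus YH9 on the y axis, both on the log2(FPKM + 1) scale, with colour for the pair in which it was called and dotted lines at a difference of 1. The 16 genes called in K11 against QX1 only and the 14 called in K6 against YH9 only lie mostly on the positive side, and 2 genes were called in both.

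The study set Kucha against conventional tea, and the choice of these genes does not use that division. The mean of K11 and K6 was compared with the mean of QX1 and YH9, a comparison added after the data were seen and made of the same differences as the pairs. The test called 13 of the 99 genes (13.1%), where 9.91% of all features tested and 7.52% of annotated genes were called. With a pseudocount of 0.1 it called 30 genes and 18.8% of all features. Of the 13 called on log2(FPKM + 1), 11 rose in Kucha (11.1%, against 4.51% of all features and 3.49% of annotated genes) and 2 fell (2.02%, against 5.39% and 4.03%). The 2 that fell were TEA013438.1 and TEA031174.1, at -1.14 ± 0.16 and -1.38 ± 0.10 (SE; limma, adjusted p = 6.56e-05 and 1.87e-07). Of the genes named above, TEA027031.1 rose by 1.98 ± 0.10, TEA021329.1 by 1.59 ± 0.17, TEA006434.1 by 1.51 ± 0.12, TEA022240.1 by 1.5 ± 0.30 and TEA013976.1 by 1.19 ± 0.13 (SE; limma, adjusted p = 8.23e-09, 5.96e-06, 3.67e-07, 0.00109 and 1.05e-05). In TEA021329.1 and TEA022240.1 the difference lay between K11 and QX1, while K6 and YH9 overlapped. Of the 11 genes that rose in Kucha, TEA013976.1 alone was called inside both pairs. With quantile normalization 14 genes rose and with trimmed mean scaling 10 did, and 2 fell in both. The share of all features called after these rescalings was not counted. With only 2 genotypes for each kind of tea, the test rests on replicate libraries and not on variation among genotypes.

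The same rule was applied to the other ways of setting 2 genotypes over the other 2. The reverse pattern, high in K6 and YH9 and low in K11 and QX1, held 146 annotated genes (0.430%). The pattern of K11 and YH9 held 286, that of QX1 and K6 held 254, that of the Kucha genotypes 78 and that of the conventional varieties 86. The 99 genes thus outnumber only the Kucha and the conventional pattern. These counts share libraries and carry no test. The median margin of the 99 genes, 1.23, was the lowest of the 6 patterns, which ran up to 1.41, with the reverse pattern close at 1.25. A margin of at least 2 was reached by 10 of the 99 genes and by 11 of the 146 in the reverse pattern, a smaller share. It was reached by 50 of 286 for K11 and YH9 and by 48 of 254 for QX1 and K6. For the Kucha and the conventional pattern it was 14 of 78 and 14 of 86. Among the 8772 unannotated loci, 72 (0.821%) met the rule for K11 and QX1, with a median margin of 1.47. This was the lowest unannotated share of the 6 patterns, the others running from 0.844% to 2.79%. In every pattern the share was higher among unannotated loci than among annotated genes.

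**Figure D5:**
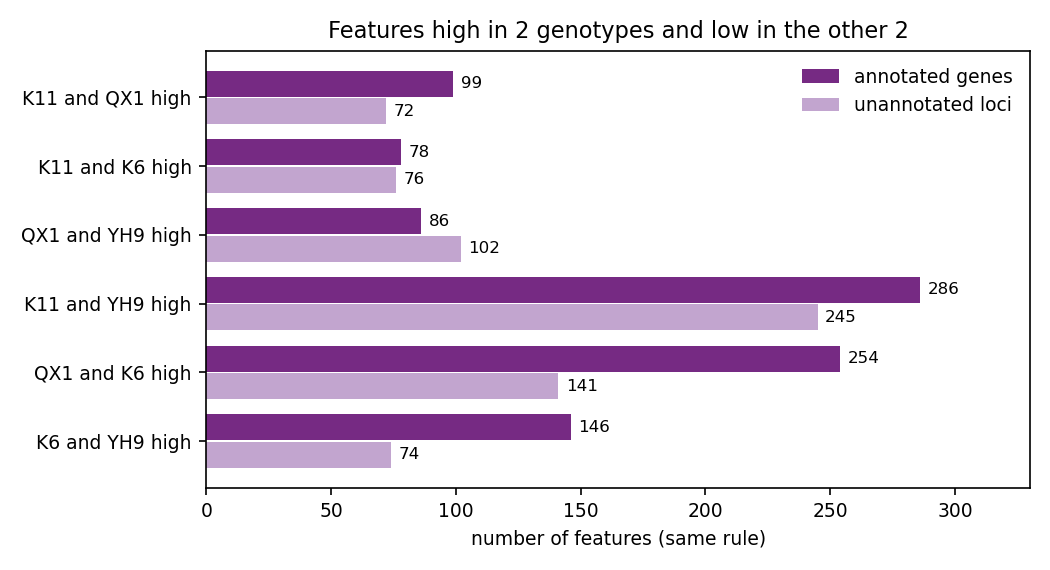
Bars count the features that are high in 2 genotypes and low in the other 2 by the same rule, for annotated genes (dark) and unannotated loci (light), over the 6 possible patterns. The K11 and QX1 pattern holds 99 annotated genes and 72 unannotated loci, fewer than the patterns of K11 and YH9 and of QX1 and K6.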

How the data were processed

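Leaf RNA of 12 libraries was analysed, 3 for each of 4 genotypes, grouped by the genotype label. The authors deposited 1 table per library with FPKM values to 2 decimals, per the file headers. Bowtie2 2.2.8 and TopHat2 2.1.1 are named in the submitters' processing notes. The authors' FPKM program, genome build, annotation and filters were not given in the sources used here. While the extraction text in the labels mentions retinas, the source and tissue labels say leaf, which was followed.

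The genes and the rules were chosen with earlier results of these data known. Tests used limma 3.58.1 (R 4.3.3; trended, robust prior) on log2(FPKM + 1), with a mean per genotype over all 12 libraries. The 29364 features entered that reached 1 FPKM in 3 or more libraries. Benjamini-Hochberg adjustment ran over all of them. On this scale the change of low genes is understated. The test was first checked on simulated data. No library was a copy of another of its genotype, as replicates had equal values in no more than 1.32% of features above 0. The alternatives were a pseudocount of 0.1, other filters (none, or 5 FPKM), quantile and trimmed mean scaling, the replicate number as a block, fits of 2 genotypes alone or of annotated genes alone, and leaving out each library. For the rule itself, overlap of libraries was allowed or a margin of 2 was asked for.

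The genes named are the one with the largest margin, the one most abundant in K11 and QX1, and the 2 with the greatest rise and the 2 with the greatest fall among those called inside each pair. Genes outside this rule were chosen after their values were seen, either as members of a count of 5 or fewer or, for TEA026520.1 and TEA029054.1, for K6 replicate 2. No sequence is shown, because the reference table used holds none.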

Additional observations from a re-analysis of the deposited data

Results flagged for a closer look

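In 7 of the genes named by rule, K11 minus QX1 differed from K6 minus YH9 by more than 1 on the log2(FPKM + 1) scale, in a limma test of that difference itself (adjusted over all features tested) that was added after the data were seen. Of these, 6 were named for a large difference inside one pair, which largely fixes that the pairs differ, so their values are a description and carry no p. Over all features the median of this quantity was 0.26, and 0.02 and 0.03 after quantile and trimmed mean scaling. TEA021329.1 and TEA022240.1 had values of 3.24 ± 0.34 and 2.5 ± 0.60 (SE), with K11 far above QX1 and K6 and YH9 overlapping. TEA029070.1 had 1.59 ± 0.20, with K6 below YH9 and the high pair overlapping. TEA027031.1 had -2.09 ± 0.20 and TEA006434.1 had -1.59 ± 0.24, with the wider gap between K6 and YH9 in each. TEA013438.1 had -1.05 ± 0.32, with K11 below QX1 and with K6 and YH9 overlapping, where K6 minus YH9 was -0.62 and not called. TEA009770.1, named for its abundance and by no pair difference, had -1.55 ± 0.21 (SE; limma, adjusted p = 3.1e-05), with K6 above YH9 and the high pair overlapping.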

How the results depend on the processing

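A pseudocount of 0.1 moved most counts. The rule then kept 249 genes, among them all 99, and of the 150 added 122 had a K11 and QX1 mean under 5 FPKM. With it, 34 of the 99 genes were called in K6 against YH9 and 30 in Kucha against conventional, while K11 against QX1 gave 19. A margin of at least 2 kept 10 genes. Under both rescalings 94 of the 99 genes were kept, TEA009770.1 not among them, and the rule found 106 genes with quantile and 107 with trimmed mean scaling.

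Leaving out 1 library gave 83 to 115 genes by the rule, 18 to 22 called in K11 against QX1, 15 to 21 in K6 against YH9 and 10 to 15 in Kucha against conventional. The lowest of the first range and the highest of the last 2 came without K6 replicate 2. The share of all features called was not counted with a library left out. Of the genes called, 17, 14 and 9 were called the same way in all 12 of these settings, in the same order of comparisons. Of 360 differences of the 9 genes named by rule, each recomputed under an alternative, 358 kept their side of the threshold, and the other 2 are the differences of TEA027031.1 given above. In 17 the value moved to or across 0. None of these passed the test in either fit, and their main values were at most 0.25 in size and their values under the alternative at most 0.58.

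Libraries with the same replicate number did not deviate together, with correlations of -0.103 to 0.056, so the numbers were not taken as pairing. With the replicate number as a block the counts of calls were 18, 16 and 13, as without it. Depth is unknown, which limits what can be said of genes near 0 in K6 and YH9.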
